A study of Rattus norvegicus with 832 samples.

Results

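The liver and the kidney of the same rat were compared in animals that had received vehicle and no test chemical. The members were all libraries labelled with a concentration of 0, from the vehicle groups of 4 chemicals (10:2 FTOH, 6:1 FTOH, PFHxSAm and 2,3-Benzofluorene), and a liver library was paired with a kidney library through the animal number in both titles. Animals were left out when the kidney library of a 2,3-Benzofluorene rat lay on plate 8 (6 rats), when the kidney library lay on plate 12 (1 rat), and for animal 105. This left 72 rats with 144 libraries, out of 80 vehicle rats with 160 libraries and 832 libraries in the whole series. The rats were 38 females and 34 males, of which 19 belonged to the 10:2 FTOH set, 14 to the 2,3-Benzofluorene set, 20 to the 6:1 FTOH set and 19 to the PFHxSAm set.

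All were Sprague Dawley rats, aged 8 to 10 weeks at the start, given vehicle by gavage at 5 mL/kg on 5 consecutive days and killed the day after. The study used such animals as controls for the effect of polyfluorinated chemicals and of a polycyclic hydrocarbon on lipid metabolism. By the labels the 2,3-Benzofluorene set received corn oil and the other 3 sets water/tween, whereas the published methods name corn oil or a mixture of acetone and corn oil, so the 4 sets are given by chemical name here. RNA came from a small frozen piece of the left liver lobe and of the right kidney, and which zone of the kidney a piece held was not stated. It was measured by TempO-Seq, in which a pair of short detector oligos is ligated on its target RNA and the ligated probe is amplified and sequenced, on a rat panel of 2654 probes for 2604 gene symbols.

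The liver takes up nutrients from the portal blood, makes most plasma proteins, bile acids and urea, stores glycogen and oxidises or synthesises fatty acids, and most of its mass is a single cell type, the hepatocyte. The kidney filters blood in the glomerulus and then recovers or secretes solutes along a series of tubule segments, namely the proximal tubule in the cortex, the loop of Henle, the distal tubule and the collecting duct, which runs into the medulla. Both organs carry out gluconeogenesis, amino acid breakdown and xenobiotic metabolism, and in the rat several genes of these pathways depend on sex hormones and on the sex-specific pattern of growth hormone. In such bulk samples, fewer cells of a type and less RNA per cell cannot be told apart.

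Library totals ranged from 1070633 to 2116964 counts in liver and from 949373 to 2359977 counts in kidney. Every plate of the kept libraries held a single tissue, so plate and tissue cannot be told apart, and the 4 chemical sets had plates of their own, except that liver plate 4 held livers of both the 2,3-Benzofluorene and the 6:1 FTOH sets. 1 kidney library stood apart, that of the male animal 218 of the 10:2 FTOH set. It had the lowest total (949373 counts) and the lowest correlation with the median kidney library over the log2 levels of the probes tested (0.940, against 0.970 to 0.994 in the other kidneys). Among the 250 kidney-enriched probes described later it gave the lowest value of the 72 kidneys for 64 and the highest for 57, and the kidney library next in number of lowest values gave 17. Its *Slc22a6* level, a proximal tubule transporter, was 50.6 CPM (counts scaled by TMM to the same library size) against 115 to 819 in the other 71 kidneys, and its level of *Aqp2*, the water channel of the collecting duct, was 33.8 against 3.23 to 26.8. Among other genes of these segments, *Slc6a18* at 88.4 CPM was 4th from the lowest of 72, while *Slc7a13* ranked 39th and *Scnn1g* 51st from the lowest. *Slc22a2*, at 723 CPM, ranked 41st of 72. The sexes do not overlap in this gene in kidney, as given below, and its value was near the low end of the males. Without this animal, which was an alternative chosen after seeing the data, 297 probes were liver-enriched and 252 kidney-enriched, against 296 and 250 with it. Among the 8 rats that were left out by the rule, 7 kidney libraries and 0 liver libraries lay on the side of the other sex for most of the sex-separating probes of their tissue (25 probes in kidney, 51 in liver).

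The sequences before the start of 5 of the most tissue-restricted genes are shown as examples of the DNA before such genes. They were chosen, among the leading genes of each organ with a RefSeq promoter, because they hold at least 1 of the motifs searched, which most of the others did not. They are the 250 bases before the RefSeq start on build GRCr8, 5′ to 3′ in the direction of transcription. *Alb* (albumin) and *Plg* (plasminogen) were high in liver, as was *Cyp3a1*, a cytochrome P450 listed in RefSeq as *Cyp3a23-3a1*. *Slc6a18* and *Slc7a12*, both amino acid transporters, were high in kidney. Capitals mark GTTAAT, CAAAGTCCA, the core of HNF4 sites, and TATAAA, on either strand.
Alb, chr14:17906980-17907229, minus strand: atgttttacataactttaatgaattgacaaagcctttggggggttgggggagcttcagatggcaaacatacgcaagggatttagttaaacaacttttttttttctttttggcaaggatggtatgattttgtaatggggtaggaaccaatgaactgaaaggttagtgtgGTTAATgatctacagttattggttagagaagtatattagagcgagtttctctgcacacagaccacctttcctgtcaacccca
Plg, chr1:50915407-50915656, minus strand: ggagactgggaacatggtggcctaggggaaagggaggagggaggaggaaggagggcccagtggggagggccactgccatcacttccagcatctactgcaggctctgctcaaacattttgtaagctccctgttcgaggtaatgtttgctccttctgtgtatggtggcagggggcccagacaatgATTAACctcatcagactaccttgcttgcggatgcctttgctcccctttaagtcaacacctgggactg
Cyp3a1, chr12:14398804-14399053, minus strand: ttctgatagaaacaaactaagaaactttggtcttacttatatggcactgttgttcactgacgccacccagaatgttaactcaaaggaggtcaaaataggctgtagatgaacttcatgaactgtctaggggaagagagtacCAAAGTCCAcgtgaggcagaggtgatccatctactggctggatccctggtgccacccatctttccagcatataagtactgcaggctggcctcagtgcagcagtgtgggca
Slc7a12, chr2:88868104-88868353, minus strand: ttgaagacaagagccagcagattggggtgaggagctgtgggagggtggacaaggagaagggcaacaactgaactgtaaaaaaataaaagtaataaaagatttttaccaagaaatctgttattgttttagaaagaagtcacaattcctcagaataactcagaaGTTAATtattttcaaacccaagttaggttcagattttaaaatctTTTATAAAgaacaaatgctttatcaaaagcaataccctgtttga
Slc6a18, chr1:31436403-31436652, plus strand: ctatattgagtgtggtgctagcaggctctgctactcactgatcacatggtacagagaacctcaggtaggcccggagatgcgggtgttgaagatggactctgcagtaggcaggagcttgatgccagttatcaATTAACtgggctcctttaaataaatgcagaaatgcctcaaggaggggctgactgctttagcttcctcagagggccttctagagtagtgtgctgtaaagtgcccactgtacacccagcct
Among the promoters that could be matched, GTTAAT was found in 13.02% of the 215 of liver-enriched genes, 7.53% of the 186 of kidney-enriched genes, 5.18% of the 1990 of all measured genes and 6.46% of the 27457 promoters in the RefSeq table. CAAAGTCCA was found in 1.86%, 0.538%, 0.653% and 0.331% of the same sets, and TATAAA in 17.7%, 10.8%, 11.3% and 13.1%. Enriched genes are those with a difference of at least 4-fold between the organs, as described in the next paragraph. These letter matches are a description and were not tested. GTTAAT stood before genes of both organs, as in *Alb* and *Slc7a12*.

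Most of the panel differed between the organs. Of the 1933 probes that passed the filter on low counts, 813 (42.1%) were higher in liver and 983 (50.9%) higher in kidney at an adjusted p below 0.05 (edgeR quasi-likelihood test with the animal as block, Benjamini-Hochberg over all probes tested), which is 92.9% in either direction. With 72 pairs many of these differences were small, and the description therefore rests on enriched probes, those past the threshold with a log2 fold change (log2 FC, liver minus kidney) of at least 2 in size. There were 296 liver-enriched probes (15.3%) and 250 kidney-enriched probes (12.9%), and 143 and 72 of these reached a log2 FC of 5 in size. The median size was 4.92 for the liver-enriched and 3.72 for the kidney-enriched probes, as the plot of log2 FC against mean level shows. For 264 of the 296 and 193 of the 250 the 72 libraries of one tissue did not overlap with the 72 of the other, whereas over all probes tested the ranges were apart for 611 (31.6%).

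**Figure D1:**
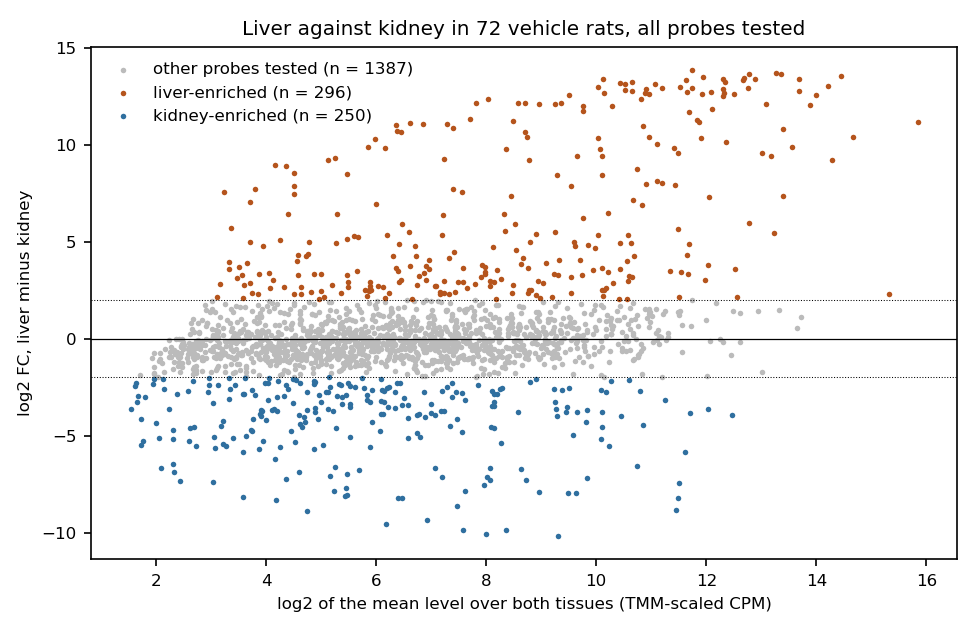
Each point is 1 of the 1933 probes tested, with the log2 of its mean TMM-scaled CPM over both tissues on the x axis and its log2 FC (liver minus kidney, paired by animal, 72 rats) on the y axis; dotted lines mark a log2 FC of 2 and -2. The 296 liver-enriched probes reach a log2 FC near 14, and the 250 kidney-enriched probes reach about -10; with library totals the log2 FC move by a median of -1.56.

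The split between the organs depended on the scaling. The liver-enriched probes held 68.2 to 74.6% (median 71.0%) of all counts of a liver library, but 4.58 to 8.79% (5.82%) of a kidney library, whereas the kidney-enriched probes held 20.9 to 26.2% (23.0%) of the counts of a kidney library. TMM normalization gave factors of 0.473 to 0.722 to the liver libraries and 1.51 to 2.12 to the kidney libraries, and put the median log2 FC over all probes tested at -0.13. With scaling by library totals alone that median was -1.69, the calls became 334 higher in liver and 1548 higher in kidney, and the enriched probes 194 and 763. All 250 kidney-enriched and 194 of the 296 liver-enriched probes were enriched under both scalings. Going from TMM to library totals moved the log2 FC of a probe by -1.56 (median over probes), so a probe less than that above 0 changes its direction with the scaling.

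The 10 probes highest in liver over kidney were all products that hepatocytes secrete into plasma or drug-metabolising P450 enzymes. Albumin (*Alb*), the main plasma protein, ranged over 23197 to 75781 CPM (median 42995) in liver and 0 to 28.8 CPM (median 2.36) in kidney (log2 FC 13.53 ± 0.24 SE, edgeR adjusted p = 3.51e-62). *Serpina1*, the antitrypsin of plasma, had 3952 to 10552 CPM (median 6704) in liver and 0 to 4.27 CPM (median 0.138) in kidney (log2 FC 13.83 ± 0.21 SE, edgeR adjusted p = 1.61e-67), and 36 of the 72 kidney libraries held 0 counts of it. *Cyp3a1* had 3304 to 36825 CPM (median 20300) in liver and 0 to 14.2 CPM (median 0.679) in kidney (log2 FC 13.71 ± 0.28 SE, edgeR adjusted p = 6.45e-58). No liver library overlapped with any kidney library for these 3 probes. Their log2 FC rested on few kidney counts (medians of 7, 0.5 and 2) and differed between the chemical sets fitted alone. It was 12.09 in the 10:2 FTOH and 15.01 in the PFHxSAm set for *Alb*. For *Serpina1* it was 12.49 and 15.62, and for *Cyp3a1* 12.01 and 16.01, so the order of such probes is uncertain. *Ahsg* (fetuin A), *Cyp2b3*, *Serpina3c*, *Mug1* (a protease-binding murinoglobulin), *Plg*, *Itih3* (inter-alpha-trypsin inhibitor heavy chain) and *Crp* (C-reactive protein) followed with log2 FC of 13.62, 13.61, 13.47, 13.45, 13.40, 13.40 and 13.38, and their tissue ranges did not overlap either.

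Of the 10 probes highest in kidney over liver 5 were transporters. *Slc7a13*, an aspartate, glutamate and cystine transporter of the proximal tubule, had 189.8 to 3199.6 CPM (median 1337) in kidney and 0 to 5.50 CPM (median 0) in liver (log2 FC -10.16 ± 0.12 SE, edgeR adjusted p = 5.74e-76). *Tinag*, an antigen of the tubular basement membrane, had 127 to 711 CPM (median 520.1) in kidney and 0 to 4.59 CPM (median 0) in liver (log2 FC -10.07 ± 0.11 SE, edgeR adjusted p = 6.43e-78). *Gpx3*, the secreted plasma glutathione peroxidase, had 752 to 9928 CPM (median 5882) in kidney and 4.14 to 40.9 CPM (median 10.9) in liver (log2 FC -8.82 ± 0.13 SE, edgeR adjusted p = 3.65e-68), and the lowest kidney values of *Tinag* and *Gpx3* were those of animal 218. The organic cation and anion transporters *Slc22a2* and *Slc22a6* had log2 FC of -9.84 and -9.33, and the amino acid transporters *Slc7a12* and *Slc6a18* -9.87 and -9.54. The last 3 were *Pgam2* (a phosphoglycerate mutase, -8.88), *Degs2* (a sphingolipid desaturase, -8.63) and *Cyp4a8* (a fatty acid hydroxylase, -8.22). All 10 had ranges that did not overlap between the organs in 72 of 72 rats.

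**Figure D2:**
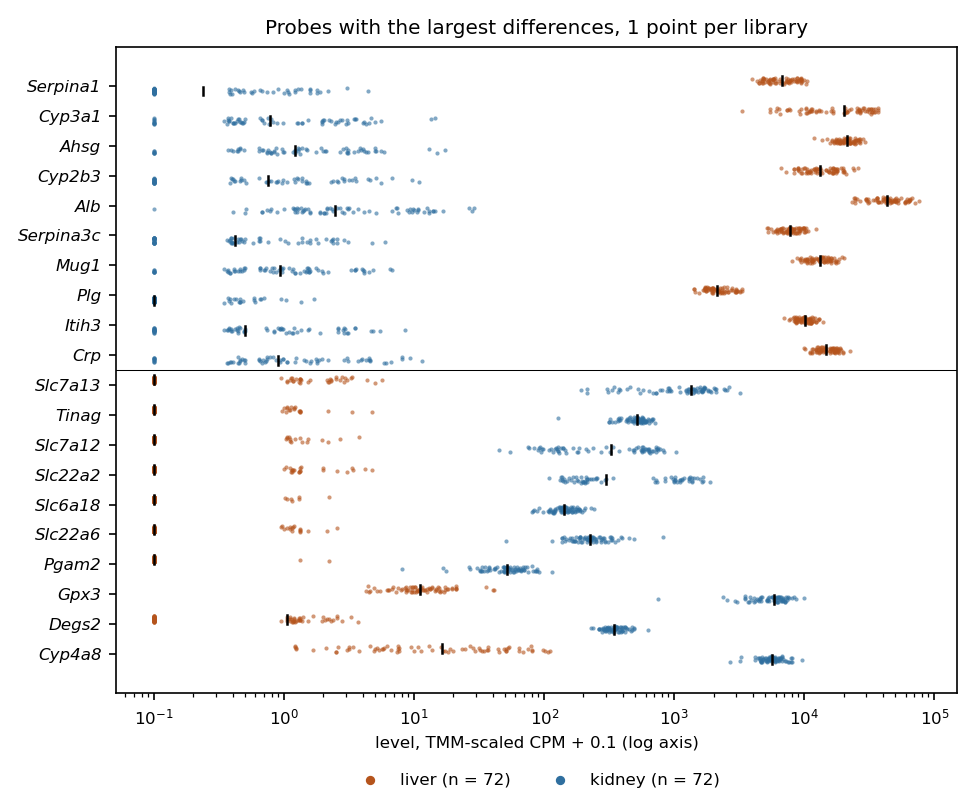
Level of the 10 liver and 10 kidney probes with the largest differences, as TMM-scaled CPM + 0.1 on a log axis, with 1 point for each of the 72 liver and 72 kidney libraries and a bar at the median. The tissues do not overlap for any of the 20 probes, and *Slc22a2* and *Slc7a12* each form separate groups of kidneys, which are the sexes.

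Secreted proteins lay mostly on the liver side. All 30 tested probes of the plasma protein list were higher in liver, with a median log2 FC of 10.97 against -0.13 over all probes tested, and with library totals 29 were higher in liver and 1 in kidney. The smallest of them were *Apcs* (serum amyloid P, 3.31), *Serpinf1* (3.03) and *Igfbp1*, an insulin-like growth factor carrier whose log2 FC of 1.03 became -0.53 with library totals. Of 23 coagulation and fibrinolysis probes 19 were higher in liver and 4 in kidney, with a median of 9.20 (17 and 5 with library totals). *Plg*, *Cpb2* (carboxypeptidase B2, 13.16) and *Serpind1* (heparin cofactor, 12.98) led the liver side. The 4 on the kidney side were *Thbd* (thrombomodulin of the endothelium, -0.68), *Vwf* (von Willebrand factor, -3.04), *F3* (tissue factor, -4.80) and *Plau* (urokinase, -6.70). *Plau* had 425 to 1168 CPM (median 757) in kidney and 1.14 to 15.8 CPM (median 7.31) in liver, and the ranges did not overlap.

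Complement followed the same division. Of 19 probes 17 were higher in liver and 2 in kidney under both scalings, with a median log2 FC of 5.54. *C9* and *C8a*, of the membrane attack complex, had log2 FC of 13.12 and 12.17, and the inhibitor *C4bpa* 12.96. *C3*, the central component, named here after its values were seen, had 73735 to 166090 CPM (median 117300) in liver and 25.6 to 169.7 CPM (median 48.4) in kidney. The kidney side held *C7* (-3.98), another component of that complex, with 1261 to 5497 CPM (median 2588) in kidney and 101 to 314 CPM (median 155) in liver, and *Cd55* (-4.32), which protects cells from complement. Of 15 apolipoprotein and lipoprotein probes 13 were higher in liver (median 7.37; 11 with library totals), led by *Apoa2* (13.37), *Apoc1* (13.21) and *Apon* (12.53). *Lpl*, the lipase that clears triglycerides at the capillary wall, and *Vldlr*, a receptor for triglyceride-rich particles, were higher in kidney (-1.76 and -4.54).

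Xenobiotic metabolism was shared, with different members in each organ. Of 33 phase 1 probes 26 were higher in liver and 5 in kidney (median log2 FC 3.51; 20 and 12 with library totals). *Cyp3a1* and *Cyp2b3* led the liver side with *Cyp1a2* (12.94), the main P450 for planar aromatic amines, which had 4327 to 10779 CPM (median 6363) in liver and 0 to 17.2 CPM (median 0.397) in kidney. The kidney side was made of the fatty acid hydroxylases *Cyp4a8* and *Cyp4a2*, for which 3 probes gave -1.89, -3.64 and -3.83, and of *Fmo1* (-1.80), a flavin monooxygenase. Of 29 phase 2 probes 20 were higher in liver and 9 in kidney (median 1.76; 15 and 13 with library totals). *Ugt2b10* (13.10) and both probes of *Sult2a6* (12.78 and 12.76) were highest in liver over kidney, and the sulfotransferase *Sult1c2* (-7.29), the glutathione-synthesis enzyme *Gclc* (-4.47) and *Sult1c2a* (-3.62) in kidney. *Gclc* had 778 to 7526 CPM (median 3204) in kidney and 78.7 to 264 CPM (median 130.1) in liver. Probes of the *Cyp2*, *Cyp3a*, *Cyp4a*, *Sult* and *Ugt2b* families have near-identical copies among which counts may be split, so their values are uncertain as to the member.

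Bile acid genes were split by step. Of 16 probes 11 were higher in liver and 4 in kidney (median log2 FC 4.49; 9 and 7 with library totals). Synthesis and basolateral uptake were on the liver side: *Akr1d1* (steroid 5-beta reductase, 12.60), *Slco1b2* (organic anion uptake, 12.08) and *Slc10a1*, the sodium-dependent bile acid transporter, which had 4393 to 6659.7 CPM (median 5420.2) in liver and 1.55 to 16.8 CPM (median 5.92) in kidney (9.80). *Cyp7a1*, the rate-limiting enzyme of bile acid synthesis, had 5.67 to 146 CPM (median 38.9) in liver and 0 counts in 64 of 72 kidneys (log2 FC 8.55 ± 0.10 SE, edgeR adjusted p = 3.04e-74). The kidney side held *Slc51a*, a subunit of the organic solute transporter, with 46.2 to 415 CPM (median 145) in kidney and 0 to 4.71 CPM (median 0) in liver (log2 FC -8.20 ± 0.13 SE, edgeR adjusted p = 4.07e-65), and *Abcc4*, *Slc10a2* and *Fgfr4* (-2.89, -0.73 and -0.18). For *Slc10a2*, the apical bile acid carrier, females alone gave -4.86 and males alone 0.68 (tissue by sex term 5.53, edgeR adjusted p = 2.19e-33).

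Nitrogen metabolism was divided enzyme by enzyme. Of 8 urea cycle and creatine probes 6 were higher in liver and 2 in kidney (4 and 3 with library totals). *Otc*, *Cps1* and *Arg1*, which begin and end the cycle, had log2 FC of 10.37, 10.32 and 9.42. *Ass1*, which makes argininosuccinate in both organs, had 1199 to 3024 CPM (median 1709) in liver and 296 to 2397 CPM (median 1472) in kidney, ranges that overlapped, and its log2 FC of 0.30 became -1.25 with library totals. *Gatm*, which carries out the first step of creatine synthesis, was on the kidney side with 485 to 9636 CPM (median 3185) in kidney and 17.03 to 54.6 CPM (median 33.9) in liver (log2 FC -6.58 ± 0.090 SE, edgeR adjusted p = 1.09e-70), and *Gamt*, which carries out the second, on the liver side (3.32). Of 27 amino acid breakdown probes 14 were higher in liver and 11 in kidney (median 0.22; 7 and 19 with library totals), against 42.1% and 50.9% over all probes tested. *Uroc1* (urocanase) and *Tdo2* (the first step of tryptophan breakdown) had log2 FC of 12.33 and 12.11, whereas *Acmsd* (further along tryptophan breakdown), *Hao2* and *Dao* (D-amino acid oxidase) had -5.83, -5.17 and -3.78. *Tdo2* held 0 counts in 49 of 72 kidneys.

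Glucose metabolism used different isozymes. Of 24 glucose and glycogen probes 6 were higher in liver and 17 in kidney, a median log2 FC of -0.72 (6 and 18 with library totals). *Hk1*, the general form of hexokinase, had 40.1 to 228 CPM (median 66.6) in kidney and 1.09 to 15.8 CPM (median 6.91) in liver (-3.38). The glucose carriers *Slc2a2* and *Slc2a1* had 2.34 and -2.77, and the 2 probes of the aldolase *Aldoa* -3.53 and -3.78. *Ppp1r3b*, which directs phosphatase to liver glycogen, and *Pygl*, the liver phosphorylase, had 6.49 and 2.51. The gluconeogenic enzymes *Pck1* and *Fbp1* were higher in kidney (-1.21 and -1.25), yet *Pck1* ranged over 49.4 to 3439 CPM (median 458) in liver and 285 to 2915 CPM (median 1219.9) in kidney, so that the ranges overlapped, and it was higher in kidney in 51 of 72 rats. Females alone gave a log2 FC of -2.63 for *Pck1* and males alone 0.35 (tissue by sex term 2.99, edgeR adjusted p = 1.92e-21). Over the 25 probes of the isozyme list, which also holds genes outside glucose metabolism, 9 were higher in liver and 16 in kidney (8 and 17 with library totals). Over all probes tested 42.1% were higher in liver and 50.9% in kidney. *Mat2a* (-3.69), the methionine adenosyltransferase of tissues other than liver, was near the kidney end.

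Lipid synthesis was on the liver side and lipid use was mixed. Of 26 fatty acid and cholesterol synthesis probes 22 were higher in liver and 3 in kidney (median log2 FC 3.02; 20 and 6 with library totals). *Thrsp*, a regulator of lipogenesis, had 1126 to 11316 CPM (median 4074) in liver and 0 to 455 CPM (median 2.42) in kidney (log2 FC 10.02 ± 0.30 SE, edgeR adjusted p = 1.20e-45), and the sterol enzymes *Nsdhl* and *Cyp51* had 5.33 and 5.00. The 3 on the kidney side were *Acss2* (-1.36), *Scd* (-2.51) and *Soat1* (-2.75), and *Scd* had 22.5 to 205 CPM (median 51.4) in kidney and 2.44 to 18.3 CPM (median 9.93) in liver. A separate probe, *Scd1*, named here after its values were seen, was liver-enriched (8.47), so the desaturase family was not on one side. Of 34 fatty acid oxidation and ketone body probes 21 were higher in liver and 11 in kidney (median 0.62), but 8 and 26 with library totals.

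Within that list the ketone body genes were divided between the organs. *Bdh1*, which interconverts the ketone bodies, had 1714 to 4091 CPM (median 2760.3) in liver and 92.7 to 330.4 CPM (median 172) in kidney (log2 FC 3.98 ± 0.042 SE, edgeR adjusted p = 1.26e-78). *Oxct1*, which ketone-using tissues need and which liver is known to lack, had 804 to 1775 CPM (median 1432) in kidney and 1.32 to 14.3 CPM (median 5.21) in liver (log2 FC -7.98 ± 0.069 SE, edgeR adjusted p = 1.05e-84). Each of these genes was higher in the same organ in 72 of 72 rats. *Fabp1*, the fatty acid carrier of liver, had a log2 FC of 12.15, and the thioesterase *Acot1* -7.52.

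Mitochondrial genes were on the kidney side. Of 13 respiratory chain and citrate cycle probes 12 were higher in kidney, 0 higher in liver and 1, *Tfam*, did not pass the test; the median log2 FC was -1.20, and with library totals all 13 were higher in kidney. The largest were *Slc25a4*, the mitochondrial ADP/ATP carrier, with 376 to 728 CPM (median 536) in kidney and 9.72 to 37.4 CPM (median 21.2) in liver (-4.62), the coactivator *Ppargc1a* (-3.44) and *Idh2* (-3.27). *Tfam*, the mitochondrial transcription factor, had 15.9 to 51.9 CPM (median 28.6) in liver and 14.5 to 44.2 CPM (median 29.8) in kidney, nearly the same range.

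The tubule segments were seen to different extents. Of 17 proximal tubule probes 11 were higher in kidney and 5 in liver (median log2 FC -3.52; 15 and 1 with library totals). Besides *Slc7a13*, *Slc22a2* and *Slc6a18*, *Slc22a6*, which takes up organic anions, had 50.6 to 819 CPM (median 226) in kidney and 0 to 2.43 CPM (median 0) in liver. The 5 on the liver side were transporters that hepatocytes also use: *Slc6a13*, *Slc22a7*, *Abcb1a*, *Slc26a1* and *Slc17a3* (1.90, 1.53, 0.82, 0.78 and 0.24), of which *Abcb1a*, *Slc26a1* and *Slc17a3* turned to -0.72, -0.78 and -1.32 with library totals, and *Slc22a7*, at 0.03, no longer passed the test.

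All 5 loop of Henle and distal tubule probes were higher in kidney under both scalings, with a median log2 FC of -5.53. *Egf*, made by the thick ascending limb, had 1356 to 3578 CPM (median 2319.9) in kidney and 28.4 to 85.5 CPM (median 49.03) in liver (log2 FC -5.53 ± 0.073 SE, edgeR adjusted p = 1.52e-71). *Casr*, the calcium-sensing receptor, and *Atp1b1*, a subunit of the sodium pump, had -6.96 and -5.85. Of 10 collecting duct probes 8 were higher in kidney and 2 in liver (median -4.96; 8 and 1 with library totals). *Aqp2* had 3.23 to 33.8 CPM (median 8.65) in kidney and 0 counts in all 72 livers, which made it at least 226-fold higher in kidney against a floor of 3 counts over the liver group. *Scnn1g*, a subunit of the epithelial sodium channel, had 2.94 to 14.99 CPM (median 8.45) in kidney, and 71 of 72 livers were at 0. The 2 against the list were the simple epithelial keratins *Krt18* and *Krt8* (4.91 and 1.64, the latter 0.08 with library totals), whereas *Krt7* had 222 to 1479 CPM (median 471) in kidney and 0 to 12.8 CPM (median 3.18) in liver. Only 3 glomerulus probes were tested, *Kdr* (1.39), *Vegfa* (0.77) and *Col4a2* (-1.97), of which *Kdr* and *Vegfa* turned to -0.17 and -0.79 with library totals. Podocyte markers were not analysed here.

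**Figure D3:**
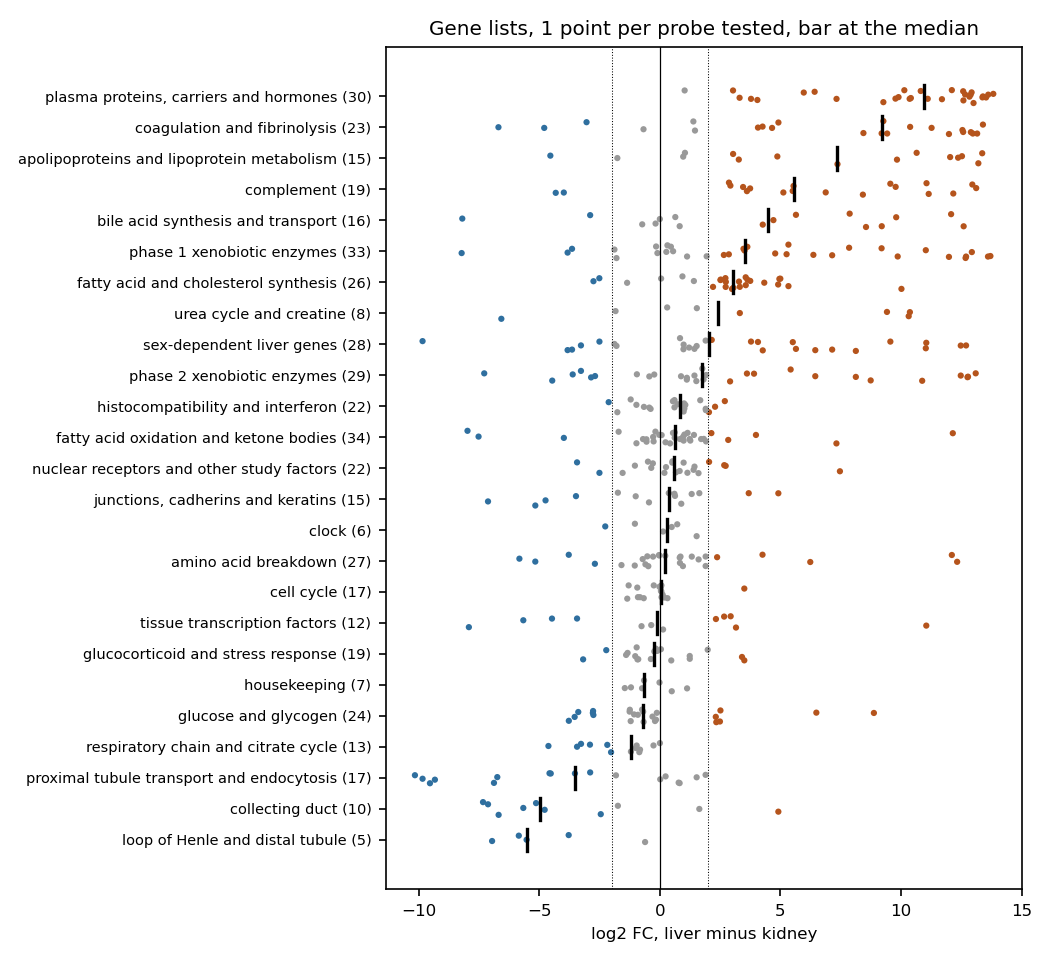
Log2 FC (liver minus kidney, TMM scaling) of every probe tested in each gene list, with the number of probes in brackets and a bar at the list's median; dotted lines mark 2 and -2. Lists of secreted proteins lie on the liver side and tubule lists on the kidney side; with library totals the log2 FC move by a median of -1.56, so that lists with smaller positive medians, such as fatty acid oxidation (0.62), move to the kidney side.

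Transcription factors and receptors lay on both sides. Of 12 tissue transcription factor probes 5 were higher in liver and 6 in kidney, close to the 42.1% and 50.9% over all probes tested. *Onecut1* (HNF6), which acts in liver, had 9.51 to 688 CPM (median 300.0) in liver and at most 0.736 CPM in kidney (log2 FC 11.04 ± 0.13 SE, edgeR adjusted p = 5.27e-76), and *Pax8*, a factor of kidney epithelium, had 638 to 1835 CPM (median 974) in kidney and 0 to 14.4 CPM (median 3.65) in liver (log2 FC -7.92 ± 0.11 SE, edgeR adjusted p = 1.04e-69). *Cebpa* (3.16) was higher in liver, and *Gata3* (-5.67) and *Hoxa5* (-4.48) in kidney. *Hnf4a*, which both organs use, had -0.36 and ranged over 109.9 to 279 CPM (median 179.9) in liver and 73.5 to 371 CPM (median 232) in kidney, with overlap. Of 22 probes of nuclear receptors and related factors 14 were higher in liver and 7 in kidney (median 0.59), but 4 and 15 with library totals. Those that stayed on the liver side included the xenobiotic receptors *Nr1i3* (CAR, 7.47) and *Nr1i2* (PXR, 2.67) and their partner *Rxra* (2.04), and *Ppargc1a* was on the kidney side. *Ppara*, with 0 to 19.6 CPM (median 9.21) in liver and 2.36 to 15.1 CPM (median 6.84) in kidney, did not pass the test. Of the 44 tested probes of genes that the study names for lipid and toxic responses, 29 were higher in liver and 13 in kidney (19 and 25 with library totals).

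Genes of general cell functions were also found on both sides, as were all probes tested (42.1% higher in liver and 50.9% in kidney). Of 7 housekeeping probes *Hprt1* (1.13) and *Psmd4* (0.49) were higher in liver, *Rplp0*, *Gapdh*, *Sdha* and *Ywhaz* in kidney (-0.66, -0.74, -1.20 and -1.45), and *Ppia* passed the test in neither direction with 1337 to 2028 CPM (median 1666) in liver and 1378 to 2113 CPM (median 1689) in kidney; with library totals all 7 were higher in kidney. Of 19 stress response probes 6 were higher in liver and 12 in kidney (3 and 16 with library totals), led by *Cdkn1a*, a cell cycle inhibitor (3.50), and by the metallothionein *Mt2A* (-3.18). Of 22 histocompatibility and interferon probes 15 were higher in liver and 7 in kidney (5 and 16 with library totals), from the immunoproteasome subunit *Psmb8* (2.69) to *Cd74* (-2.12), the invariant chain of class II molecules. Of 17 cell cycle probes 2 were higher in liver, 7 in kidney and 8 in neither, but 1 and 16 were higher in liver and kidney with library totals. Of 15 junction, cadherin and keratin probes 8 were higher in liver and 7 in kidney (2 and 12 with library totals), from the gap junction protein *Gjb1* (3.69) to the tight junction proteins *Cldn7* (-4.74) and *Cldn4* (-5.17).

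Among those with the highest mean CPM of the 240 probes with a log2 FC under 0.2 in size, 4 are described. They were *Hspd1* (-0.16), a mitochondrial chaperone, *Gcdh* (-0.16) and *Aldh7a1* (-0.13), of lysine breakdown, and *Echs1* (0.07), of fatty acid oxidation. *Hspd1* had 3988 to 9041 CPM (median 5638) in liver and 3915 to 11130 CPM (median 6420.1) in kidney. With library totals these 4 were -1.72, -1.71, -1.69 and -1.49.

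The summed markers of hepatocytes, of the thick ascending limb and of the collecting duct were higher in the labelled organ without overlap, while those of other cell types did not all follow the labels. Of 8 hepatocyte markers, *Hnf4a* is made in both organs, and all 8 summed to 209 to 389 CPM (median 288) in kidney with plate medians of 263 to 326. Without *Hnf4a* the other 7 (*Alb*, *Ttr*, *Apoa1*, *Serpina1*, *Fgb*, *Ahsg* and *Tf*) summed to 116200 to 241500 CPM in liver and to 17.9 to 166 CPM (median 50.4) in kidney. In kidney the sum of these 7 differed between plates, with medians of 33.7 on plate 5, 48.4 on plate 6, 47.0 on plate 7, 78.1 on plate 10 and 147 in the 2 kept libraries of plate 8. The 2 measured proximal tubule markers, *Slc22a6* and *Slc22a8*, summed to 294 to 3128 CPM in kidney and 0 to 973 CPM in liver, and the high liver values came from *Slc22a8* in males. Of the other cell types, 6 macrophage markers summed to 879 to 2402 CPM in liver and 152 to 474 CPM in kidney, ranges that did not overlap. 3 adipocyte markers (*Adipoq*, *Fabp4* and *Cidec*) summed to 88.1 to 237 CPM in liver and 79.0 to 2129 CPM in kidney. The 3 measured cholangiocyte markers (*Krt7*, *Krt19* and *Spp1*), which tubule cells also express, summed to 11.6 to 79.9 CPM in liver and 1141 to 21780 CPM in kidney. The distal convoluted tubule marker *Pvalb* and the pancreas marker *Amy2a3* were at or near 0 in both organs. The part of these cells in the differences between the organs was not tested.

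For most enriched probes the tissue difference was alike in the 4 chemical sets. When each set was fitted alone, the pooled liver-enriched probes were found again for 282 of 296 in the 10:2 FTOH set, 285 in the 2,3-Benzofluorene set, 289 in the 6:1 FTOH set and 293 in the PFHxSAm set, and the kidney-enriched for 232, 234, 238 and 234 of 250. In all 4 sets and the pooled fit 272 liver-enriched and 218 kidney-enriched probes were shared. The rats of each set were part of the pooled fit that defined these probes. Finding them again, in the same direction, thus follows partly from that choice. The range of the log2 FC among sets was taken over the 546 enriched probes, of which 513 had a value in every set. It had a median of 0.479 and was under 1 for 76.2%, and no probe changed direction. *Alb*, *Serpina1* and *Cyp3a1*, described above, were among those with a wider range.

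The size of the difference nevertheless differed between sets for 272 of 1933 probes (14.1%; edgeR test of the tissue by set terms, adjusted p below 0.05). The PFHxSAm set was the one farthest from the other 3 for 167 of the 269 that had a value in all sets, and the 10:2 FTOH set for 81. Without the PFHxSAm set 52 probes were called, and without the 10:2 FTOH set 147. *Atp5a1*, a subunit of ATP synthase, had a kidney median of 272 CPM in the PFHxSAm set against 598 to 691 in the others, while its liver medians were 249 to 278 in all sets. *Cyp2c23*, an arachidonic acid epoxygenase, had a kidney median of 5369 CPM in that set against 12282 to 14932. *Slc17a2* had a kidney median of 9.93 against 18.7 to 25.5. The changes of these 3 lay in the kidney libraries, all on plate 5 for PFHxSAm, so set and plate cannot be told apart. *Apoa2*, also among the 5 probes with the smallest p, had a kidney median of 8.44 CPM in the 10:2 FTOH set (plate 10) against 0.553 to 1.44, and the sum of the 7 hepatocyte markers other than *Hnf4a* was also higher on that plate than on plates 5, 6 and 7.

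Sex changed the tissue difference of many probes. The liver minus kidney difference was unequal in males and females for 855 of 1933 probes (44.2%; edgeR test of the tissue by sex term, adjusted p below 0.05), of which 420 were higher and 435 lower in males. The interaction was at least 1 in size on the log2 scale for 180 and at least 2 for 57, and for 103 of the 855 the tissue direction itself was opposite in the sexes. Within a tissue, 925 of 1593 probes (58.1%) differed by sex in liver and 935 of 1905 (49.1%) in kidney, at a median size of 0.30 in both among those called. Of the 1463 probes tested in both organs 464 were called in both, 281 in the same direction and 183 in opposite directions.

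**Figure D4:**
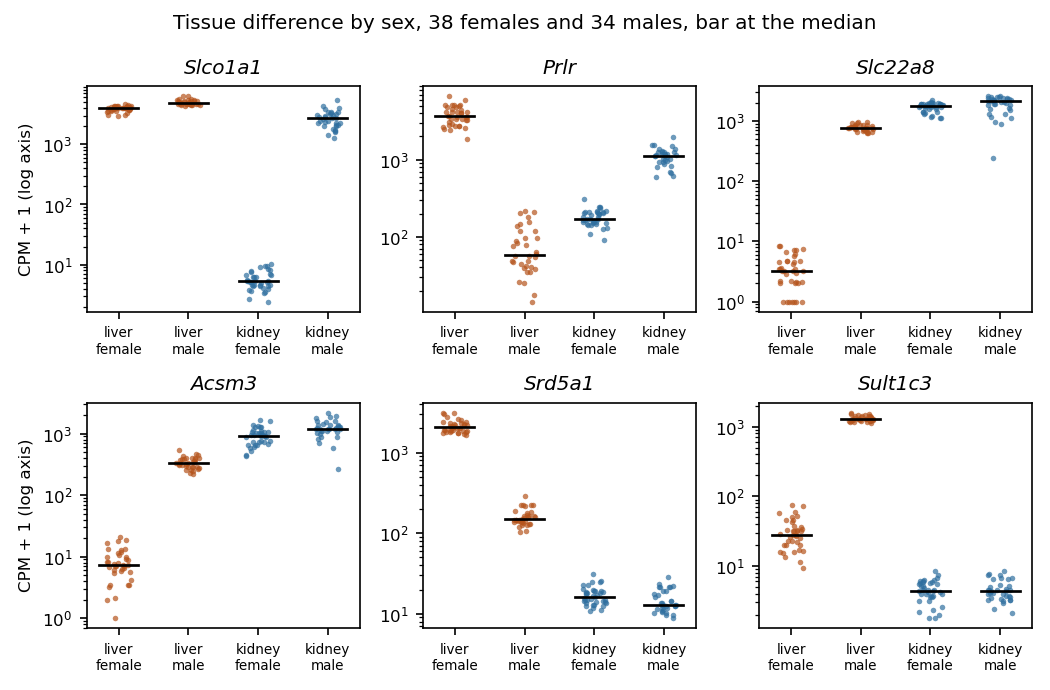
Levels of 6 of the 12 probes with the smallest p of the tissue by sex test, as CPM + 1 on a log axis, with 1 point per library, bars at the median, and 38 females and 34 males in each organ. In *Slco1a1* the groups separate in kidney, in *Slc22a8*, *Acsm3*, *Srd5a1* and *Sult1c3* in liver, and in *Prlr* in both organs and in opposite directions.

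The transporters *Slco1a1* and *Slc22a8* showed the pattern in mirror image. *Slco1a1*, an organic anion uptake carrier, had 2918 to 4706 CPM (median 4045) in female and 4405 to 6288 (median 4852) in male livers, 1.43 to 9.35 (median 4.28) in female kidneys and 1275 to 5512 (median 2692) in male kidneys, an interaction of -8.76 ± 0.14 (SE, edgeR adjusted p = 5.48e-65). It was thus nearly restricted to liver in females and high in both organs in males. *Slc22a8*, an organic anion carrier of the proximal tubule, had medians of 1778 CPM in female and 2116 in male kidneys, 774 in male livers (625 to 972) and 2.26 in female livers (0 to 7.54), with an interaction of 8.04 ± 0.20 (adjusted p = 7.54e-51). It was thus nearly restricted to kidney in females and high in both organs in males, and the smallest male kidney value, 244, was that of animal 218.

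The prolactin receptor *Prlr* reversed its tissue. Female livers had 1871 to 6641 CPM (median 3657) and male livers 13.5 to 214 (57.2), whereas female kidneys had 91.0 to 304 (170) and male kidneys 603 to 1958 (1131). The tissue difference was 4.40 in females and -3.96 in males, and the interaction -8.36 ± 0.20 (adjusted p = 3.20e-51). *Hsd17b10*, a mitochondrial dehydrogenase, also lay on opposite sides, with -0.35 in females and 1.02 in males, while *Rb1*, the retinoblastoma protein, was higher in kidney in both (-2.003 and -0.307). Under library totals the interactions of the 12 probes kept their direction and stayed past the threshold.

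In *Srd5a1*, *Sult1c3*, *Acsm3* and *Hao2* the sexes differed mainly in liver. *Srd5a1*, a steroid 5-alpha reductase, had medians of 2055 CPM in female and 149 in male livers and of 15.3 and 12.0 in kidneys. *Sult1c3*, a sulfotransferase, had 27.3 in female and 1285 in male livers and 3.43 and 3.33 in kidneys. *Acsm3*, a medium-chain acyl-CoA synthetase, and *Hao2*, a hydroxyacid oxidase, had medians of 6.27 and 12.1 in female and 337 and 206 in male livers, against 926 and 1617 in female and 1207 and 2626 in male kidneys. Both were kidney-enriched over all rats, and the difference was smaller in males.

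In *Asgr2*, *Mbl1* and *Cyp2d5*, liver-enriched genes, the sexes differed in kidney. *Asgr2*, a subunit of the hepatocyte asialoglycoprotein receptor, had medians of 3839 and 3663 CPM in female and male livers, but 4.34 in female (1.65 to 9.61) and 46.0 in male kidneys (24.8 to 97.4). *Mbl1*, a mannose-binding lectin, had 609 and 672 in livers and 3.46 and 35.8 in kidneys, and *Cyp2d5* 140 and 145 in livers and 0 and 9.00 in kidneys. The male and female kidney ranges did not overlap for any of the 3. In contrast *Cps1*, a hepatocyte gene whose liver medians were 1975 and 2115, had kidney medians of 2.67 in females and 0.331 in males.

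The sexes also separated some of the leading tissue genes. *Slc22a2* had 108 to 335 CPM (median 196) in female and 681 to 1895 (median 1129) in male kidneys, and *Slc7a12* 298 to 1037 (median 599) in female and 44.9 to 274 (median 125) in male kidneys; in both genes the sexes did not overlap in kidney. *Onecut1* had 200 to 688 (median 523) in female and 9.51 to 281 (median 73.6) in male livers. Some probes did not pass the filter on low counts because they were present in 1 sex of 1 organ only, and 5 of them are named here after their values were seen. *A1bg* had a median of 2282 CPM in female livers and 2.94 in male livers, and *Cyp2c13* 7.59 and 6110, *Hsd3b5* 1.03 and 880, *Stac3* 2.14 and 907 and *Obp3* (probe 33099) 2.04 and 2540. The kidney medians of these 5 were all under 1 CPM in both sexes.

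Finally, the paired design allowed a probe to be followed across animals in both organs. Liver and kidney log2 levels, each centred on its mean per sex and chemical set, were correlated over the 72 rats for 1243 probes with at least 10 counts in 90% of the libraries of each organ. The median r was 0.04, and 78 probes (6.28%) passed a permutation test (100000 resamples within sex and set, two-sided, Benjamini-Hochberg adjusted p below 0.05), 74 with a positive and 4 with a negative r. Spearman's rho called 75, and 68 were called by both.

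For several of the highest, the animals fell into separate groups, so no r over all rats is given. *Gbp2*, an interferon-induced GTPase, was at 0 to 1.08 CPM in the livers of 7 rats and at 15.6 to 230 in the other 65, and the same 7 rats had 0 to 0.425 in kidney against 19.4 to 169. *Glod4*, a glyoxalase domain protein, had 9.69 to 47.7 in 19 livers, 83.2 to 129 in 34 and 160 to 229 in 19, and in kidney 2.77 to 41.7, 108 to 142 and 189 to 256, again in 19, 34 and 19 rats. The 19 rats of the low group were the same in both organs, and 18 of the 19 of the high group. *Cpne3*, a copine, had 40.1 to 79.3 in 25 livers and 97.5 to 217 in 47, and the same 25 rats had 39.0 to 74.6 in kidney against 104 to 220.

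*Ephx2*, the soluble epoxide hydrolase, was at 332 to 613 CPM in the livers of 5 rats and 72.5 to 229 in the other 67, and the same 5 had 443 to 572 in kidney against 48.2 to 134. Within the 67 the organs were not related (Pearson's r = 0.07, Spearman's rho = 0.10, permutation p = 0.592, adjusted p = 0.657 over 10 such tests, r = 0.12 without the 2 rats farthest from the median). Within the 65 rats of the upper *Gbp2* group r was 0.75 (rho = 0.75, r = 0.71 without 2 rats). No p is given for it, since *Gbp2* was chosen for its r over the same rats. *Rassf1* had 1 rat near 0 in both organs, at 1.33 CPM in liver and 0 in kidney. *Loc688090* had 10 low livers, and 9 of these rats were among the 10 lowest kidneys. Over *Gbp2*, *Glod4*, *Loc688090*, *Rassf1* and *Ephx2*, each with a gap of at least 0.5 on the log2 scale in both organs, and *Cpne3*, 70 of the 72 rats lay on the same side of every gap in liver and in kidney. Of the 8 rats that the rule left out, 4 did. These probes were chosen for their r between the organs in the 72 rats. Agreement in the 72 thus follows partly from that choice, and the counts cannot be set against each other.

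**Figure D5:**
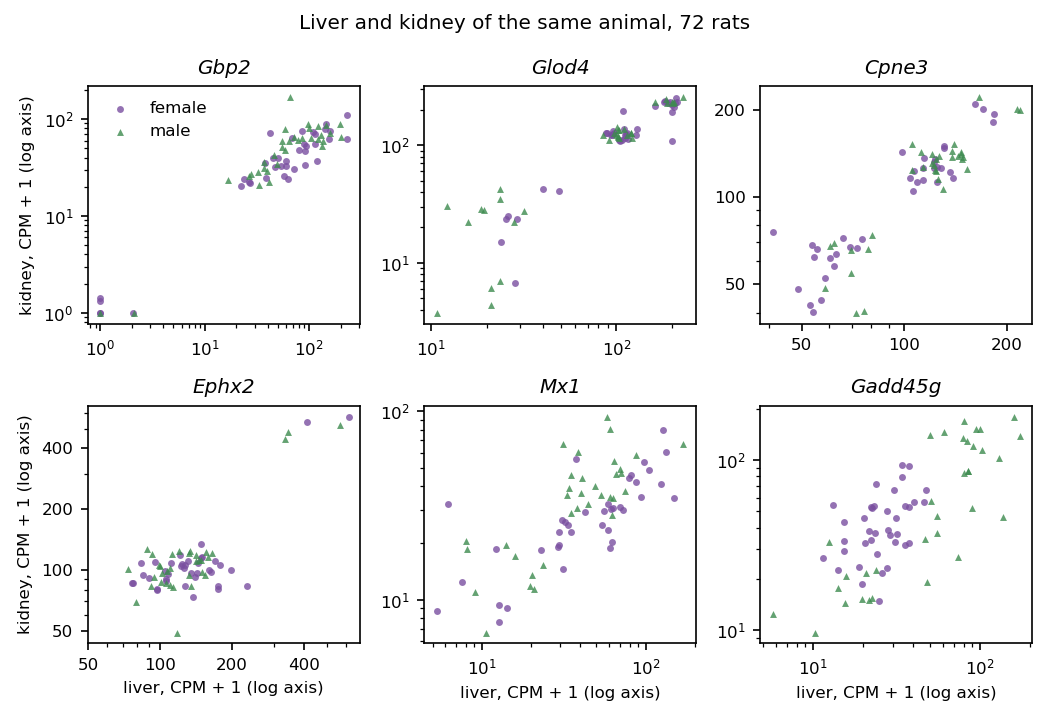
Level of 6 covarying probes in the liver (x axis) and the kidney (y axis) of the same rat, as CPM + 1 on log axes, with circles for the 38 females and triangles for the 34 males. *Gbp2*, *Glod4*, *Cpne3* and *Ephx2* fall into separate groups that the organs of a rat share, whereas *Mx1* and *Gadd45g* are spread along a line.

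*Ywhaz*, a 14-3-3 protein, was at 158 to 175 CPM in the livers of 4 rats and 213 to 430 in the other 68, and the same 4 had 396 to 516 in kidney against 577 to 1226. *Mtmr2*, a phosphoinositide phosphatase, had r = 0.87 (rho = 0.84, r = 0.86 without the 2 rats farthest from the median), the interferon-induced *Mx1* 0.76 (0.78, 0.74) and the stress-induced *Gadd45g* 0.76 (0.73, 0.72), each with an adjusted p of 0.000497 by permutation over 72 rats. Of the 13 histocompatibility and interferon probes tested 6 were called, among them *RT1-S3*, *Psmb8*, *Psmb9*, *Mx1* and *Gbp2*, and of 15 stress response probes 6, *Fkbp5*, *Mt2A*, *Jun*, *Gadd45g*, *Dnajb1* and *Hspa8*, all named because they were called. *C1qc* and *Emr1* were called among 5 macrophage probes. None of the probes of the plasma protein, coagulation, amino acid, glucose, fatty acid oxidation or proximal tubule lists was called (10, 9, 23, 18, 27 and 6 tested; median r between -0.08 and 0.09). Over all probes tested 6.28% were called, and no call in lists of this size is near that share. *Gcdh*, of lysine breakdown but not in the amino acid list, was called (r = 0.41, adjusted p = 0.00425 by permutation). Of 5 clock probes *Nr1d2* was called (r = 0.46, rho = 0.34, adjusted p = 0.00528, r = 0.34 without 2 rats, while the adjusted p of its rho was 0.0718), and *Arntl*, *Npas2*, *Dbp* and *Bhlhe40* were not (r of -0.06, 0.35, 0.19 and -0.03).

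Some enriched probes varied widely among the rats of the organ they mark. The 8 most variable kidney-enriched probes, chosen after their values were seen, were *Fabp4*, *Spp1*, *Ppic*, *Cryab*, *Tspan8*, *Kcnk1*, *Grik2* and *Rap1gap*. *Spp1* (osteopontin) ranged over 762 to 21075 CPM (median 4869) in kidney, *Ppic*, a cyclophilin, over 499.6 to 7548 CPM (median 1468), and *Cryab*, a small heat shock protein, over 34.6 to 385 CPM (median 107). Apart from *Fabp4* they moved together, with r of 0.40 to 0.90 (median 0.81) over the 21 pairs of probes in 72 kidneys, and 0.42 to 0.89 (median 0.79) without animal 218; *Fabp4* had r of 0.10 to 0.62 with the others. These values are a description only, with no p given because of that choice, and the position of the piece within the kidney was not stated. In liver the 8 most variable were *Onecut1*, *Scd1*, *Socs2*, *Cyp2b2*, *Sult2a2*, *Loc299282*, *Cyp2b1* and *Loc259245*, of which *Loc259245* ranged over 4.25 to 25209 CPM (median 51.9) and the sulfotransferase *Sult2a2* over 224 to 23802 CPM (median 1875). In both organs the ranking used the SD of log2 levels centred on the mean per sex and chemical set. That SD was 0.635 for *Loc259245* and 0.788 for *Sult2a2*. The ranges are over all rats and so also hold differences between the sexes and sets.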

How the data were processed

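TempO-Seq was run by the authors on liver and kidney RNA of vehicle-treated Sprague Dawley rats. The authors aligned the reads to the probe sequences with Bowtie, and the deposited values are raw counts per probe and library. Whether a correction for attenuated probes is contained in these counts was not stated. Samples were grouped from the labels (dose, tissue, chemical, sex, and the animal and plate in the title).

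Levels are CPM on the library sizes scaled by TMM and were compared within a probe only, since probes differ in efficiency. Probes that passed filterByExpr with tissue as group (1933 of 2654) were tested with the quasi-likelihood test of edgeR 4.0.16 in R 4.3.3, with 1 term per animal, and p-values were adjusted by Benjamini-Hochberg over all probes tested. The filter asks for counts in more libraries than the 38 females or 34 males of a tissue, so probes that are high in 1 sex of 1 tissue only could fail it. Probe-level alternatives used limma 3.58.1 on log2(RPM + 1 or + 5), DESeq2 1.42.0 and its size factors, scaling by library totals, other filters and limits, fits without 1 chemical set or without the animal block, 1 sex alone, libraries of the main plates only, and all 80 vehicle rats. Covariation and figures were made in Python 3.11.15. Rats are the replicates, but several shared a cage and a plate.

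The pairing comes from the animal number, as both organs are from the same rat. Deviations from the sex and set means had a median correlation of 0.11 in the same rat (-0.41 to 0.37) and -0.0025 in other rats. Of the 72 livers, 32 correlated best with the kidney of their own rat among rats of the same sex and set. On counts simulated from these libraries, the tissue test recovered 92.2% of changes of 0.5 and 100% of changes of 1 or 2 on the log2 scale with 14 false calls (6.70% of its calls), and the test of tissue by sex 78.1%, 92.3% and 98.6% with 7 (3.74%). In each simulation 200 of the 1933 probes were changed, by at most 2 on the log2 scale, from means over both organs. The differences between the real organs were more frequent and larger, and their shift with scaling was not simulated. Recovery in that setting was therefore not tested.

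The members and gene lists were chosen with earlier results of these data known. The text names the 10 probes with the largest differences on each side (median of at least 50 CPM in the higher organ), the 3 members at each end of a gene list and those against its organ, any isozyme, nuclear receptor, study-named, housekeeping or clock gene, the 12 probes with the smallest p for sex, the 10 with the largest r between organs, 5 flat probes and the 5 with the smallest p between sets; others are named with a remark. Some probes that this rule covers are not reported here. Promoters came from RefSeq (GRCr8), to which 2451 probes were matched by symbol and 95 by synonym, while 108 were not matched.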

Additional observations from a re-analysis of the deposited data

Results flagged for a closer look

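The liver minus kidney difference was unequal in the sexes for the 12 probes with the smallest p of the edgeR tissue by sex test, and the values are males minus females on the log2 scale. The difference was lower in males for *Slco1a1* (-8.76), *Prlr* (-8.36), *Cyp2d5* (-5.60), *Srd5a1* (-3.54), *Asgr2* (-3.42) and *Mbl1* (-3.12). It was higher in males for *Slc22a8* (8.04), *Sult1c3* (5.43), *Acsm3* (5.14), *Hao2* (3.35), *Rb1* (1.70) and *Hsd17b10* (1.38).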

How the results depend on the processing

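The tissue direction depended most on scaling. With library totals 334 probes were higher in liver and 1548 in kidney, with 194 and 763 enriched, and 802 were enriched in all 4 sets against 490 with TMM. limma on log2(RPM + 1) gave 335 and 1552 with 189 and 725 enriched, and on log2(RPM + 5) 335 and 1552 with 173 and 542 enriched; both use RPM on library totals. A log2 FC limit of 1 gave 472 liver-enriched and 462 kidney-enriched probes and 791 in all 4 sets, and a limit of 3 gave 166 kidney-enriched probes. The count of probes that differed between sets was 147 without the 10:2 FTOH set and 52 without the PFHxSAm set.

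Of the 132 named log2 FC, 10 turned to kidney under those 3 scalings. For *Igfbp1*, *Ass1*, *Abcb1a*, *Slc26a1*, *Slc17a3*, *Kdr*, *Vegfa*, *Hprt1*, *Psmd4* and *Echs1* the values were -0.53, -1.25, -0.72, -0.78, -1.32, -0.17, -0.79, -0.43, -1.07 and -1.49 with library totals, -0.54, -1.25, -0.67, -0.78, -1.32, -0.17, -0.79, -0.43, -1.07 and -1.49 with limma on log2(RPM + 1), and -0.52, -1.25, -0.40, -0.77, -1.32, -0.17, -0.79, -0.43, -1.06 and -1.48 with limma on log2(RPM + 5). In males alone *Slc10a2*, *Pck1* and *Slc17a3* turned to 0.68, 0.35 and -0.36, and in females alone *Aldh7a1* and *Echs1* to 0.022 and -0.13. Another 13 values of named probes lost and 6 gained significance, and 2174 kept direction and call. All 180 values of the 12 sex interactions kept both.

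Without the replicate block, which pairs the organs of a rat, 817 probes were higher in liver and 985 in kidney, 296 and 251 were enriched, 342 differed between sets and 848 between sexes; no count moved by over 1.5 times. Without animal 218, 813 and 983 were higher, 262 differed between sets, 887 between sexes, 916 by sex in liver, 1002 by sex in kidney, and 88 covaried. Plates were nested in tissue, so a plate effect cannot be told apart from tissue, and depth limits probes near 0 counts, whose log2 FC depend on the prior count.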
